A study of Mus musculus with 11 samples.

Results

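The genes described here are the Wnt ligands, their receptors and co-receptors, their secreted antagonists, the R-spondins and a few Wnt targets, 49 genes of the 24411 in the deposited tables. They were chosen by symbol: every Wnt, Fzd, Sfrp, Dkk and Rspo gene that carries a number, together with Axin2, Lef1, Lgr5, Lgr6, Wif1, Lrp5, Lrp6 and Sostdc1. The rule itself uses symbols and no measured value, and it was set with earlier results of these data known. Counts were high enough to test 39 of the 49, and 14588 of all genes.

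The RNA came from inflamed mouse back skin, and the study asked about marrow-derived cells of the Pdgfra lineage that enter such skin. The hosts were Tg(act-EGFP)Y01Osb mice, transgenic for EGFP. A dose of 10 Gy was followed by tail vein transfer of femoral marrow that had been sorted from Pdgfra-Cre;tdTomato mice. The transplanted cells were tdTomato-positive for 4 samples and tdTomato-negative for 7 samples. After 6 weeks, MC903, a vitamin D analogue that induces a dermatitis, was applied 6 times, and skin was taken on day 14. All 11 samples thus share the EGFP host, the irradiation, the donor genotype and MC903, and the label gives the age of all as 16-18 with no unit. The tdTomato mark follows cells that use, or descend from cells that used, the Pdgfra-Cre allele, and the sort acts on the transplanted marrow, not on the skin cells that the host keeps. Skin given no transplant or no MC903 was not analysed here. The labels do not say that each sample is an animal of its own, and the spread behind every p-value may therefore be partly technical. Total RNA depleted of ribosomal RNA was sequenced, and the libraries held 7190752 to 9749842 expected counts each. Expected counts are the estimated number of reads per gene, and TPM values are those counts divided by transcript length and scaled to the same sum in each sample. Levels of different genes are compared below in TPM only.

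Wnt proteins are secreted lipid-modified ligands that bind Frizzled receptors together with the co-receptors Lrp5 or Lrp6. In the canonical branch this stabilises beta-catenin, which enters the nucleus and acts with Lef1 and other Tcf factors on target genes such as Axin2. Sfrp proteins and Wif1 bind Wnt ligands outside the cell, Dkk proteins and Sostdc1 act on the Lrp co-receptors, and R-spondins bind Lgr receptors and keep Frizzled proteins at the surface. In skin the pathway is known for starting hair follicles, for renewing them at each hair cycle and for specifying the cells of the hair shaft.

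Because the follicle cycles, each sample was placed on a hair score, the mean z-score of log2 CPM (counts scaled to library size) over 33 genes of the hair shaft and inner root sheath, none of them among the 49. The share of counts from those 33 genes differed 137-fold between the lowest and the highest sample. In the tdTomato-positive group the score was -0.449, -1.32, -1.04 and 0.464 for replicates 1 to 4. In the tdTomato-negative group the lowest score was -1.60, the median 0.755 and the highest 1.13. Positive replicates 1 to 3 and negative replicates 1 and 7 lay below 0, and positive replicate 4 and negative replicates 2 to 6 lay above it, so both groups held samples low and high in hair genes. The hair slope of a gene, used throughout, is its log2 change per unit of hair score within the groups, from 1 edgeR model with terms for group and score. One unit of score went with a log2 change of 2.67 in the share of hair gene counts. A gene is called at an adjusted p under 0.05, with Benjamini-Hochberg adjustment over all 14588 genes.

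The upstream sequences of the 3 members with the smallest p among those that rose with the hair score, and of the 1 with the smallest p among those that fell with it, are shown first because the results turn on these genes. They come from the RefSeq promoter table of GRCm38.p6, run 5′ to 3′ on the gene's strand, end just before the annotated gene and carry in capitals any match to the motifs named after them.
Fzd5, chr1:64737751-64738000, minus strand, 250 bases, 76.4% GC, 32 CpG: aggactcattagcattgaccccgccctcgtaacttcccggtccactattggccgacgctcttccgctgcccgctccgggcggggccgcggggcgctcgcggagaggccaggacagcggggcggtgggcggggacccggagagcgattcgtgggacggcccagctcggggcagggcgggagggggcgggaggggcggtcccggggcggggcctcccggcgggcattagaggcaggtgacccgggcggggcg
Wnt11, chr7:98834862-98835083, plus strand, 222 bases, 70.7% GC, 32 CpG: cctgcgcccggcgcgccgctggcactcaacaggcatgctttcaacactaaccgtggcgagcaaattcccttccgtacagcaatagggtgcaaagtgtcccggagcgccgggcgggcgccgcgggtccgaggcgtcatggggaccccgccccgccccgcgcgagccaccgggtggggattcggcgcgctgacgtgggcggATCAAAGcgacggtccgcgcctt
Lef1, chr3:131110047-131110296, plus strand, 250 bases, 66.4% GC, 11 CpG: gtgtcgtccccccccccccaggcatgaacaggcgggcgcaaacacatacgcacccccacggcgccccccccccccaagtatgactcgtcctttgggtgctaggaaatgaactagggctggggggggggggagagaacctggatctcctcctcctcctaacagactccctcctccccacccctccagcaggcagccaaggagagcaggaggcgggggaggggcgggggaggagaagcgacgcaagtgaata
Lgr6, chr1:135105375-135105526, minus strand, 152 bases, 65.1% GC, 7 CpG: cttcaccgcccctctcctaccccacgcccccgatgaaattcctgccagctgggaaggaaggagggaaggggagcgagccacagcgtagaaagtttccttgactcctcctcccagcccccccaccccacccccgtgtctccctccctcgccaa

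Fzd5 is annotated on chromosome 1 at 64730558 to 64737750, Wnt11 on chromosome 7 at 98835084 to 98854747, Lef1 on chromosome 3 at 131110297 to 131224357 and Lgr6 on chromosome 1 at 134983300 to 135105374, all as protein-coding genes. The printed stretches lie upstream, just outside these spans. Promoters were found in the table for 31 of the 49 members, 37 start sites in all. The letters CTTTG followed by AA, AT, TA or TT, forms of the core that Tcf and Lef1 proteins are known to bind, were searched on both strands in the 250 bases before each start. They occurred before 5 of the 37 member starts (13.5%) and before 14.8% of all 32851 starts in the table. Among the 4 stretches shown, only that of Wnt11 held one, beginning 51 bases before the table's start site. Member promoters had a median GC content of 66.8% and 21 CpG dinucleotides, against 52.4% and 6 over the whole table. A match is a description of letters and was not tested as a binding site.

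Transcripts of every receptor layer were present in all samples. The highest mean levels over the 11 samples were those of Sfrp1 at 60.8 TPM, the co-receptor Lrp6 at 52.5 TPM, Fzd1 at 45.6 TPM, Sostdc1 at 44.3 TPM and Fzd6 at 44.1 TPM. Wnt4, with 23.0 TPM, and Wnt5a, with 19.3 TPM, led the ligands. Summed over the 10 Frizzled genes the level was 184 ± 32.2 TPM in tdTomato-positive samples and 232 ± 35.0 TPM in tdTomato-negative samples (SD, n = 4 and 7). The 19 Wnt genes together reached 89.0 ± 11.8 TPM in the positive and 102 ± 8.43 TPM in the negative group (SD, n = 4 and 7). These sums were not tested. The order of neighbouring genes is close: the ranges of Fzd1, Sostdc1 and Fzd6 over samples overlap widely.

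**Figure D1:**
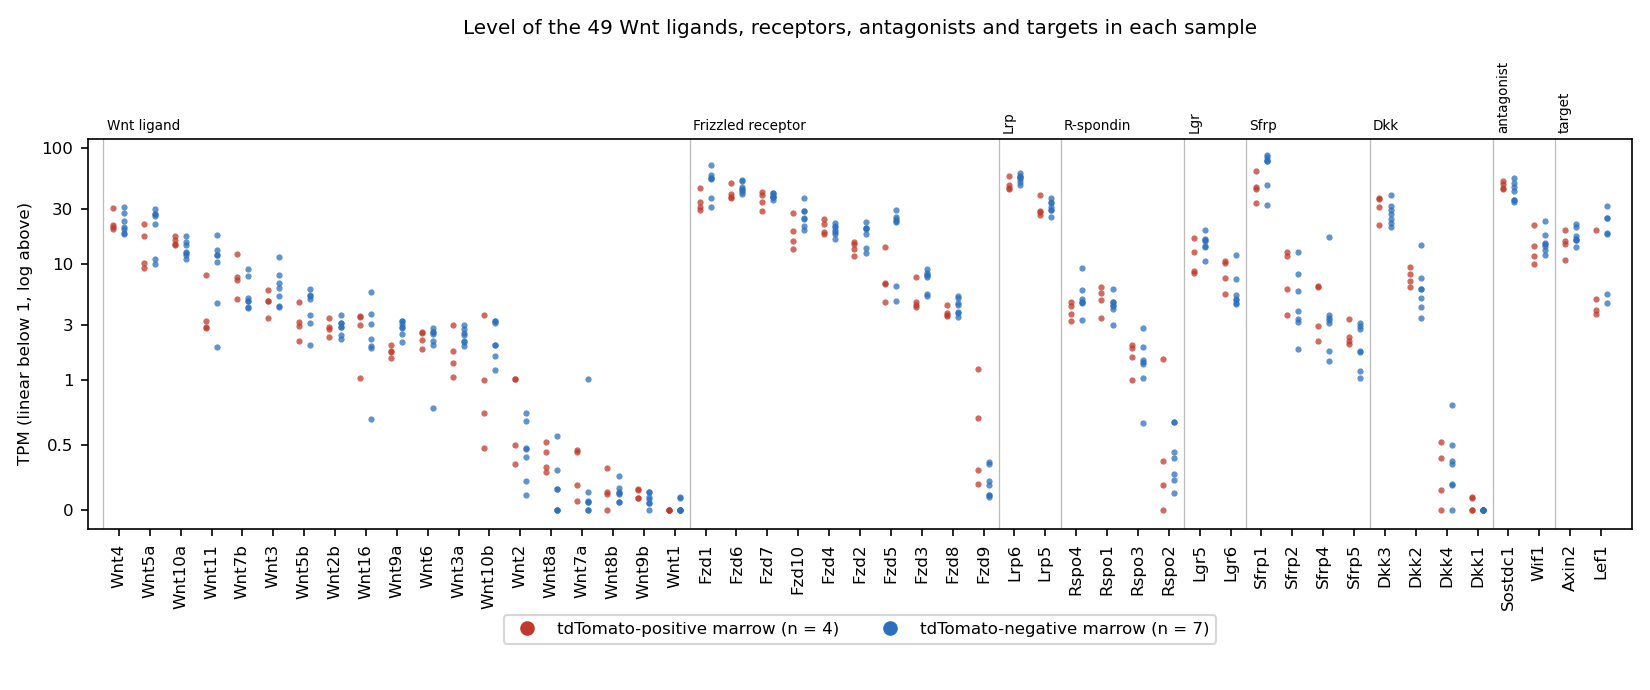
TPM of each of the 49 members (x axis, ordered by family and then by mean level) in every sample, with tdTomato-positive samples in red on the left of each pair and tdTomato-negative samples in blue on the right; the y axis is linear below 1 TPM and logarithmic above. Wnt11, Fzd5 and Lef1 show the split into low and high samples within both groups, while Dkk1 and Wnt1 lie at or near 0.

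The 10 members that were not tested are Dkk1, Dkk4, Fzd9, Rspo2, Wnt1, Wnt2, Wnt7a, Wnt8a, Wnt8b and Wnt9b. Their highest expected count in any sample was 22, for Rspo2. Dkk1, a strong inhibitor of canonical signalling, had at most 1 count in a sample and was listed at 0 in 9 of the 11 samples, where a count of 0 allows up to 3 counts by counting error alone. Wnt1 likewise never passed 1 count.

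Of the 39 members tested, 15 changed with the hair score, 12 upward and 3 downward. That is 38.5% of the members tested, beside 11.2% of all genes tested. In the upward direction it is 30.8% of members beside 7.16% of all genes, and downward 7.69% beside 4.02%. The median hair slope of the 39 was 0.10, against -0.0044 for all genes tested, and 24 of the 39 slopes (61.5%) were above 0, against 48.8% of all genes. The genes that rose were Lef1, Wnt11, Fzd5, Wnt10b, Wnt5a, Sfrp1, Fzd1, Wif1, Lgr5, Fzd3, Fzd10 and Lrp6, and those that fell were Lgr6, Wnt7b and Wnt4. Without negative replicate 1 the members called came to 9, and those called downward were 1 without negative replicate 1, 2, 5 or 6 and 0 without negative replicate 7. In bulk skin, fewer cells of a type and less RNA per cell cannot be told apart, and this holds for every level below.

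**Figure D2:**
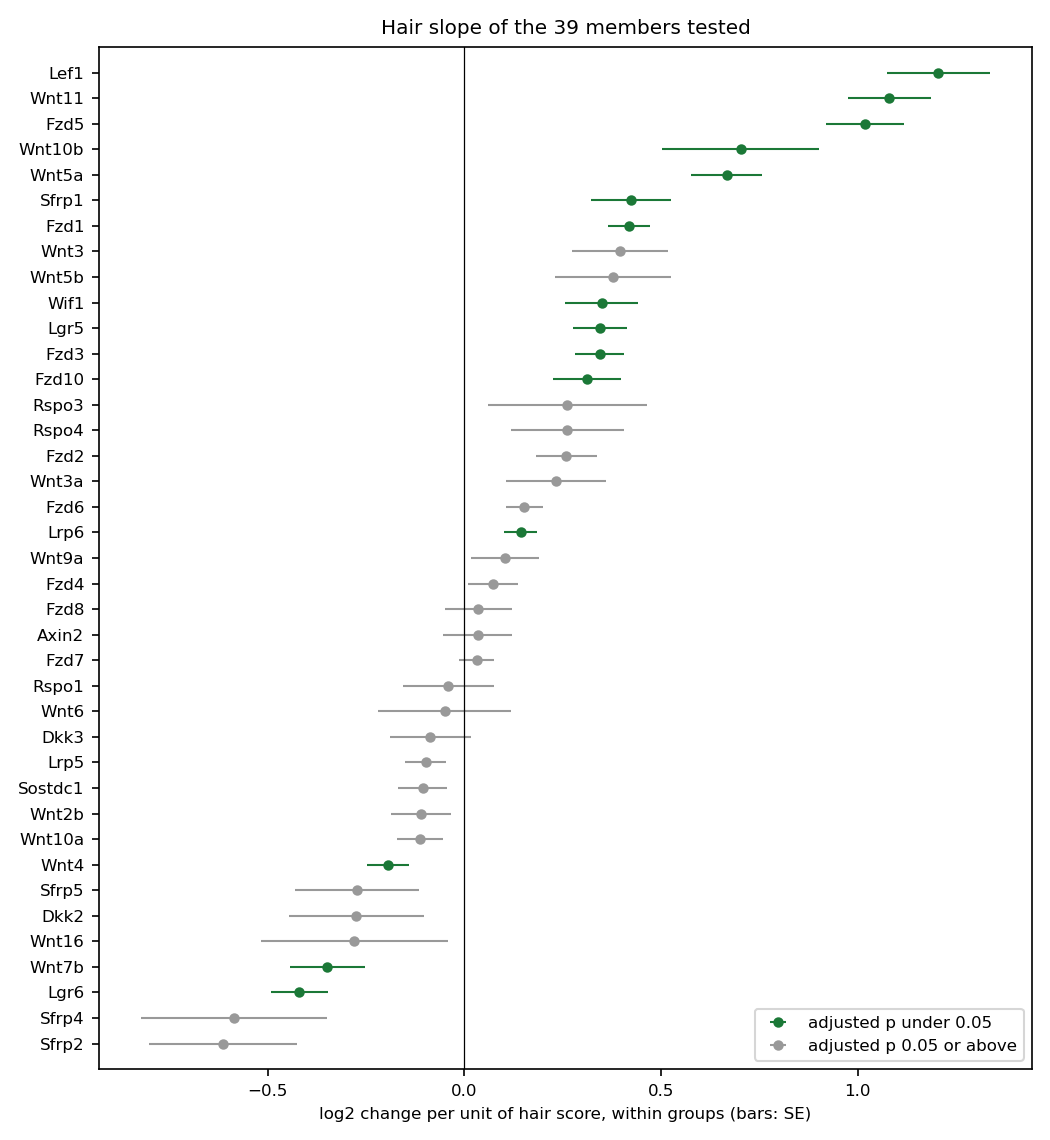
Hair slope (x axis, log2 change per unit of hair score within groups, bars give the SE) of the 39 members tested, in order of slope; green marks an adjusted p under 0.05 in edgeR. Lef1, Wnt11 and Fzd5 exceed a slope of 1, Lgr6, Wnt7b and Wnt4 are the 3 called below 0, and Axin2 lies close to 0.

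Among the ligands, 13 of 19 were tested, 3 rose and 2 fell, beside 7.16% of all genes called upward and 4.02% downward. Wnt11, which acts mainly through noncanonical, beta-catenin-independent branches, had 2.82, 2.87, 3.26 and 8.04 TPM in positive replicates 1 to 4. In the negative group its lowest level was 1.94 TPM, the median 11.9 TPM and the highest 17.8 TPM. The groups overlapped: positive replicates 1 to 3 and negative replicates 1 and 7 were all low, and positive replicate 4 stood between them and negative replicates 2 to 6. Its hair slope was 1.08 ± 0.11 (log2 per unit, SE, adjusted p = 2.28e-05 in edgeR), on 23 to 242 counts per sample.

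Wnt5a, the best known noncanonical Wnt and one made by the dermal papilla, measured 17.3, 10.2, 9.22 and 22.3 TPM in positive replicates 1 to 4. In negative samples it ran from 10.1 TPM through a median of 26.0 TPM to 29.7 TPM. Negative replicates 1 and 7 lay with positive replicates 2 and 3 at the low end, and positive replicate 1 was higher than its hair score neighbour, negative replicate 1. The slope was 0.67 ± 0.09 (SE, adjusted p = 0.000407 in edgeR).

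Wnt10b, a canonical ligand known from the onset of hair growth, was called on few reads (5 to 37 counts per sample) and is named here after its values were seen. It had 0.75, 0.48, 1.0 and 3.66 TPM in positive replicates 1 to 4, against a lowest of 1.24, a median of 2.02 and a highest of 3.26 TPM in negative samples. Positive replicate 4 held the highest level of all 11 samples and positive replicates 1 to 3 the lowest. Its slope of 0.70 ± 0.20 (SE, adjusted p = 0.0416 in edgeR) missed the threshold without negative replicate 1, 2, 3 or 6 or positive replicate 2, 3 or 4, with slopes of 0.46 (without positive replicate 4) to 0.70 and adjusted p of 0.0610 to 0.136. Without negative replicate 7 its slope was 1.22 and it was called.

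The ligands that fell were Wnt7b and Wnt4, and the cells that made them here cannot be read from bulk skin. Wnt7b had 5.02, 7.76, 12.3 and 7.26 TPM in positive replicates 1 to 4, against 4.23, 4.80 and 9.07 TPM as the lowest, median and highest in negative samples. Wnt4, known from keratinocytes, had 20.9, 20.2, 30.4 and 21.6 TPM in positive replicates and 18.1, 20.8 and 31.2 TPM as the lowest, median and highest in negative samples. For both, the groups overlapped, and negative replicates 1 and 7 were the highest of their group. The slopes were -0.35 ± 0.10 for Wnt7b (SE, adjusted p = 0.036) and -0.20 ± 0.05 for Wnt4 (SE, adjusted p = 0.037), both in edgeR. Neither call was robust to single samples: Wnt7b lost it without negative replicate 1, 2, 4, 5, 6 or 7 (slopes -0.38 to -0.33, adjusted p 0.0557 to 0.137), and Wnt4 without negative replicate 1, 2, 3, 5, 6 or 7 or positive replicate 4 (slopes -0.21 to -0.18, adjusted p 0.0581 to 0.196).

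Wnt10a, a ligand needed for skin appendages and the third most abundant Wnt in these samples, did not pass, with a slope of -0.11 ± 0.06 (SE, adjusted p = 0.222 in edgeR). It ranged from 14.5 to 17.5 TPM in positive samples and from 11.2 to 17.4 TPM in negative samples. Wnt3 had a slope of 0.40 ± 0.12 (SE, adjusted p = 0.0589 in edgeR), and its gene overlaps that of Wnt9b by 1098 bases on chromosome 11. Reads of both may be mixed there because the strand setting of the counting is not given in the sources used here. Wnt9b had at most 4 counts in a sample, and Wnt3 had 53 to 171. Wnt10b and Wnt1 lie 11650 bases apart on chromosome 15, and Wnt1 had at most 1 count per sample. Wnt6 and Wnt10a, 6696 bases apart on chromosome 1, had slopes of -0.05 and -0.11, and neither passed.

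Among the receptors, all 9 Frizzled genes tested had a slope above 0 and 4 were called, beside 48.8% of all genes with a slope above 0 and 7.16% called upward. Fzd5 had 6.74, 4.76, 6.87 and 13.9 TPM in positive replicates 1 to 4. In negative samples its lowest level was 4.86, the median 23.7 and the highest 29.2 TPM. Positive replicates 1 to 3 and negative replicates 1 and 7 were all under 7 TPM, positive replicate 4 was intermediate, and negative replicates 2 to 6 formed the upper end, so the groups overlapped at the low end only. The slope was 1.02 ± 0.10 (SE, adjusted p = 2.16e-05 in edgeR).

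Fzd1, the most abundant Frizzled, had 31.3, 29.1, 34.2 and 44.9 TPM in positive replicates 1 to 4, against 31.1, 55.0 and 71.1 TPM as the lowest, median and highest in negative samples. Fzd3, a receptor best known from planar polarity and axon guidance, had 4.25, 4.74, 4.50 and 7.79 TPM in positive replicates, against 5.34, 8.12 and 9.03 TPM in negative samples on the same terms. In both genes positive replicate 4 was the highest of its group and overlapped the negative group. Their slopes were 0.42 ± 0.05 (SE, adjusted p = 0.000245) and 0.34 ± 0.06 (SE, adjusted p = 0.00373) in edgeR.

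Fzd10, named after its values were seen, had a slope of 0.31 ± 0.09 (SE, adjusted p = 0.0365 in edgeR), with 13.4 to 27.8 TPM in positive samples and 19.6 to 37.3 TPM in negative samples. Its call was lost without negative replicate 1, 3, 5 or 6 or positive replicate 2 or 4 (slopes 0.26 to 0.31, adjusted p 0.0561 to 0.120). Fzd6, which orients hairs across the skin in mice, and Fzd7 were the next most abundant Frizzled genes and did not pass. Fzd6 had a slope of 0.15 ± 0.05 (SE, adjusted p = 0.0556) and Fzd7 one of 0.03 ± 0.05 (SE, adjusted p = 0.692) in edgeR. DESeq2 did call Fzd6 (0.15, adjusted p = 0.0305). So did edgeR with hair measured by inner root sheath genes (0.16, adjusted p = 0.0462) or with no group term (0.16, adjusted p = 0.0133).

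The co-receptors gave slopes of opposite sign. Lrp6 had 45.0, 48.4, 43.9 and 57.6 TPM in positive replicates 1 to 4, against 47.8, 56.0 and 60.4 TPM as the lowest, median and highest in negative samples. Its slope was small, 0.14 ± 0.04 (SE, adjusted p = 0.0485 in edgeR), and it missed the threshold without any 1 of negative replicates 1 to 7 or positive replicates 3 and 4 (slopes 0.13 to 0.20, adjusted p 0.0525 to 0.123). Lrp5 had 26.4, 28.8, 39.7 and 28.3 TPM in positive replicates, against 25.5, 30.8 and 37.1 TPM in negative samples on the same terms, and did not pass (slope -0.10 ± 0.05, SE, adjusted p = 0.239 in edgeR).

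The 2 Lgr receptors of the list, both markers of follicle stem cells in mice, moved in opposite directions. Lgr5, which marks the lower bulge and hair germ, had 12.7, 8.69, 8.36 and 16.9 TPM in positive replicates 1 to 4, against 10.7, 15.7 and 19.6 TPM as the lowest, median and highest in negative samples. Lgr6, which marks cells of the isthmus above the bulge, had 5.59, 10.2, 10.7 and 7.56 TPM in positive replicates and 4.52, 4.99 and 11.9 TPM in negative samples on the same terms. Negative replicate 7, the sample with the lowest hair score, was the lowest of its group for Lgr5 and the highest of all 11 samples for Lgr6. Lgr5 had a slope of 0.34 ± 0.07 (SE, adjusted p = 0.00671) and Lgr6 one of -0.42 ± 0.07 (SE, adjusted p = 0.00302) in edgeR. Without negative replicate 7 the Lgr6 slope was -0.35, and its adjusted p was 0.0853. The R-spondins, ligands of these receptors, did not pass: Rspo4 (slope 0.26 ± 0.14), Rspo3 (0.26 ± 0.20) and Rspo1 (-0.04 ± 0.12) had adjusted p of 0.258, 0.427 and 0.847 in edgeR, with SE given.

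**Figure D3:**
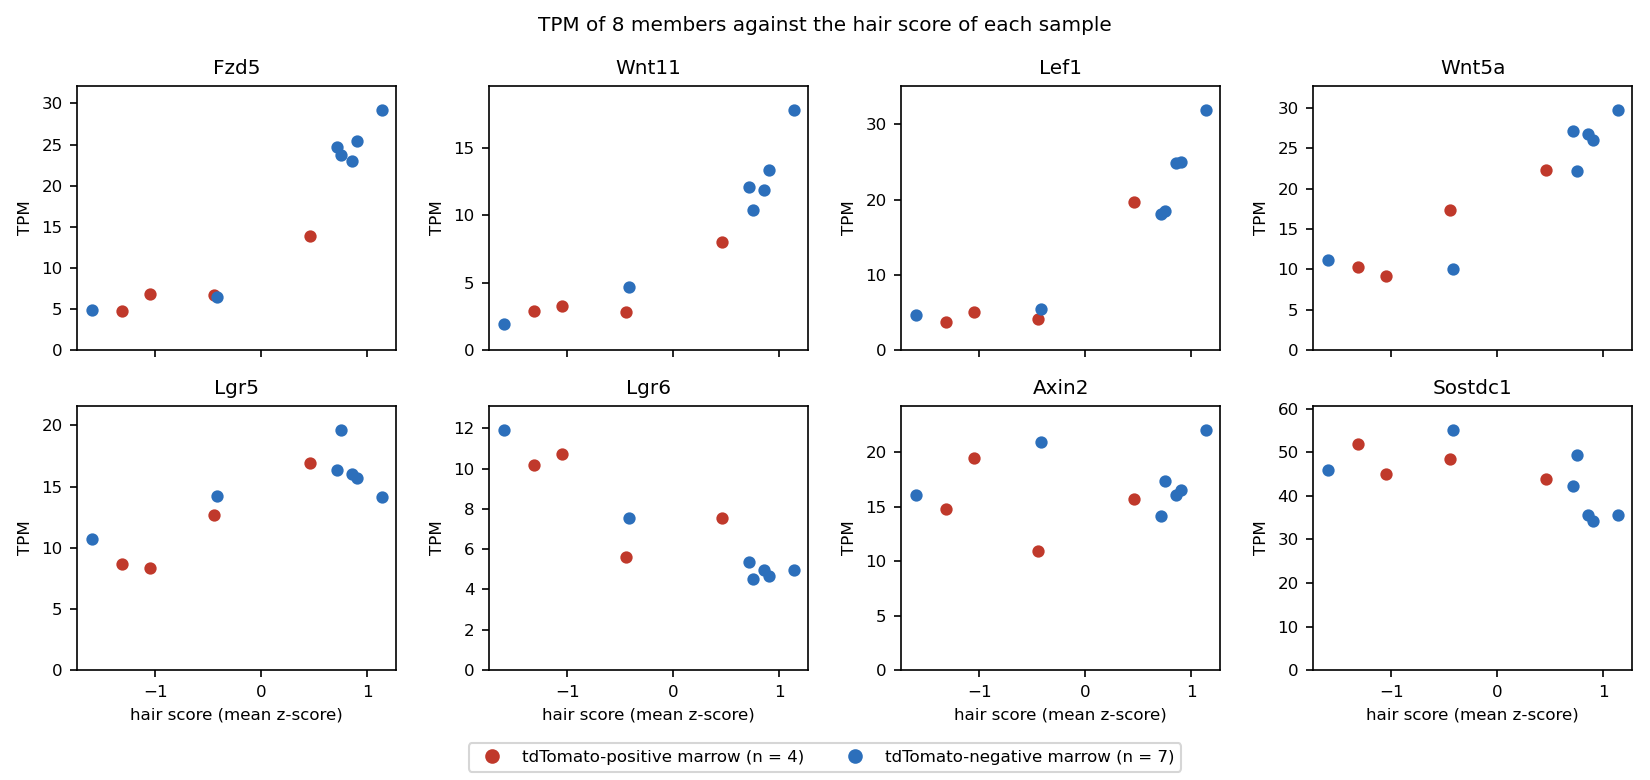
TPM (y axes, linear from 0) of 8 members against the hair score (x axes, mean z-score) in the 4 tdTomato-positive samples (red) and the 7 tdTomato-negative samples (blue). Lef1, Wnt11 and Fzd5 are low in the 5 samples with a score below 0 and higher in the 6 above it, Lgr6 has its 3 highest levels in samples with a score below 0, and Axin2 and Sostdc1 show no called slope.

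The 2 genes read as targets or effectors of canonical signalling differed in their values. Lef1, the DNA-binding partner of beta-catenin that is strong in the hair matrix and precortex, had 4.07, 3.70, 5.02 and 19.7 TPM in positive replicates 1 to 4. In negative samples its lowest level was 4.63, the median 18.45 and the highest 31.9 TPM. Positive replicate 4 lay among negative replicates 2 to 6, and positive replicates 1 to 3 lay with negative replicates 1 and 7, with no sample between 5.52 and 18.05 TPM. Its slope was 1.21 ± 0.13 (SE, adjusted p = 6.13e-05 in edgeR).

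Axin2, the negative feedback gene that is used as a general readout of canonical signalling, had 10.9, 14.8, 19.5 and 15.7 TPM in positive replicates 1 to 4, against 14.1, 16.5 and 22.0 TPM as the lowest, median and highest in negative samples. The groups overlapped, and the highest levels came from negative replicate 3, with the highest hair score, and negative replicate 1, with a score below 0. Its slope was 0.03 ± 0.09 (SE, adjusted p = 0.835 in edgeR), and its sign turned in some alternatives given with the processing. The difference between the Lef1 and Axin2 slopes was not tested.

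Among the antagonists, 2 of the 10 genes rose, none fell, and 8 of the 10 were tested, beside 7.16% of all genes called upward and 4.02% downward. Sfrp1, the most abundant gene of the whole set, had 46.4, 44.2, 33.8 and 63.1 TPM in positive replicates 1 to 4, against 32.2, 77.5 and 86.1 TPM as the lowest, median and highest in negative samples. Wif1 had 14.4, 11.9, 10.0 and 21.9 TPM in positive replicates, against 12.0, 14.8 and 23.3 TPM in negative samples on the same terms. For both, positive replicate 4 was the highest of its group and the groups overlapped. The slopes were 0.42 ± 0.10 for Sfrp1 (SE, adjusted p = 0.0186) and 0.35 ± 0.09 for Wif1 (SE, adjusted p = 0.0309) in edgeR. The Wif1 call was lost without negative replicate 1, 5 or 7 or positive replicate 2 or 4 (slopes 0.29 to 0.47, adjusted p 0.0502 to 0.107).

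The other Sfrp genes had slopes below 0 that did not pass. Sfrp2, a secreted Frizzled-related protein of dermal fibroblasts, had 12.7, 11.7, 3.67 and 6.07 TPM in positive replicates 1 to 4, against 1.85, 3.98 and 12.7 TPM as the lowest, median and highest in negative samples. Sfrp4 had 2.95, 6.41, 2.18 and 6.47 TPM in positive replicates, against 1.48, 3.29 and 17.0 TPM in negative samples on the same terms. Negative replicate 7 held the highest level of its group for both. Sfrp2 had a slope of -0.61 ± 0.19 (SE, adjusted p = 0.0558), Sfrp4 one of -0.59 ± 0.24 (SE, adjusted p = 0.129) and Sfrp5 one of -0.27 ± 0.16 (SE, adjusted p = 0.279) in edgeR. The Sfrp4 value rests on negative replicate 7, without which its slope was 0.41. Sfrp2 was called without positive replicate 1 (-0.64, adjusted p = 0.0297) or 3 (-0.70, adjusted p = 0.00417), and Sfrp4 without positive replicate 4 (-0.81, adjusted p = 0.0496), all in edgeR. DESeq2 also called Sfrp2 (-0.63, adjusted p = 0.018). So did edgeR with no group term (-0.66, adjusted p = 0.0175) and in the 7 negative samples only (-0.74, adjusted p = 0.0101).

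Of the Dkk genes, Dkk3, a divergent member of the family, was the most abundant, with 36.4, 31.1, 36.8 and 21.9 TPM in positive replicates 1 to 4, against 21.1, 26.9 and 39.2 TPM as the lowest, median and highest in negative samples. Dkk2, known from the dermal papilla and from hairless skin in mice, had 9.41, 7.10, 8.23 and 6.39 TPM in positive replicates, against 3.45, 6.07 and 14.6 TPM in negative samples on the same terms. Neither passed, with slopes of -0.09 ± 0.10 for Dkk3 (SE, adjusted p = 0.619) and -0.27 ± 0.17 for Dkk2 (SE, adjusted p = 0.32) in edgeR. The Dkk2 slope was -0.0846 without negative replicate 1 and -0.62 without negative replicate 7. Dkk4 stayed at 5 counts or fewer in every sample. Sostdc1, which binds Lrp6 and bone morphogenetic proteins, had 48.5, 51.9, 45.1 and 44.0 TPM in positive replicates, against 34.2, 42.3 and 55.1 TPM in negative samples on the same terms (slope -0.11 ± 0.06, SE, adjusted p = 0.288 in edgeR).

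The hair slope was also fitted separately in each group within 1 model, to see whether it differed between recipients of tdTomato-positive and tdTomato-negative marrow. None of the 39 members had an adjusted p under 0.05 for that difference, beside 0.00685% of all genes tested, and the smallest among members was 0.964 in edgeR. At an unadjusted p under 0.05 there were 4 members, Fzd2, Lgr5, Wnt10b and Wnt5b, which is 10.3% of members beside 4.91% of all genes. With 4 positive samples, of which 1 had a score above 0, this comparison has little precision.

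The donor comparison, tdTomato-positive over tdTomato-negative marrow, called no member and no gene in edgeR (0% of all genes tested). At an unadjusted p under 0.05 there were 7 members, all lower in recipients of tdTomato-positive marrow: Wnt9a, Fzd1, Fzd5, Fzd3, Wnt11, Fzd2 and Fzd10. That is 17.9% of the members, beside 16.8% of all genes, and in the downward direction beside 9.73%. DESeq2 called no member either, and 68 genes of the whole table, and edgeR called 1 gene without negative replicate 4 and 3 without negative replicate 7, none of them a member. The median log2 fold change of the 39 was -0.18, against -0.0071 for all genes, and 26 of the 39 were below 0 (66.7%, against 51.4% of all genes).

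Hair content moved with the groups, since 3 of 4 positive samples and 2 of 7 negative samples had a hair score below 0. The 15 members called for hair were chosen by the same model that gives the donor fold change with the score. A smaller donor fold change for them was therefore largely set in advance, and nothing about its cause was tested. It was smaller in size with the score for 14 of the 15. The exception was Wnt4, with a log2 fold change of 0.0066 by group only and -0.16 with the score. Wif1 turned sign, with -0.16 by group only and 0.15 with the score, and Wnt5a likewise had -0.63 by group only and 0.019 with the score. Fzd5 had a log2 fold change of -1.35 ± 0.51 (SE) by group only, and -0.24 with the score. For Wnt11 the values were -1.33 ± 0.53 (SE) and -0.18, and for Lef1 they were -1.36 ± 0.64 (SE) and -0.27. Fzd1 had -0.61 ± 0.23 (SE) and -0.18, and Fzd3 had -0.53 ± 0.21 (SE) and -0.21. Of the members above 0, those with the smallest p were Wnt7b and Lgr6. Wnt7b had a log2 fold change of 0.48 ± 0.24 (SE, adjusted p = 0.336 in edgeR) and Lgr6 one of 0.43 ± 0.26 (SE, adjusted p = 0.394 in edgeR), and neither passed. Next by p came Wnt10a (0.19 ± 0.11), Sfrp2 (0.63 ± 0.46) and Sostdc1 (0.14 ± 0.12), with SE given. Their adjusted p were 0.40, 0.48 and 0.55 in edgeR.

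**Figure D4:**
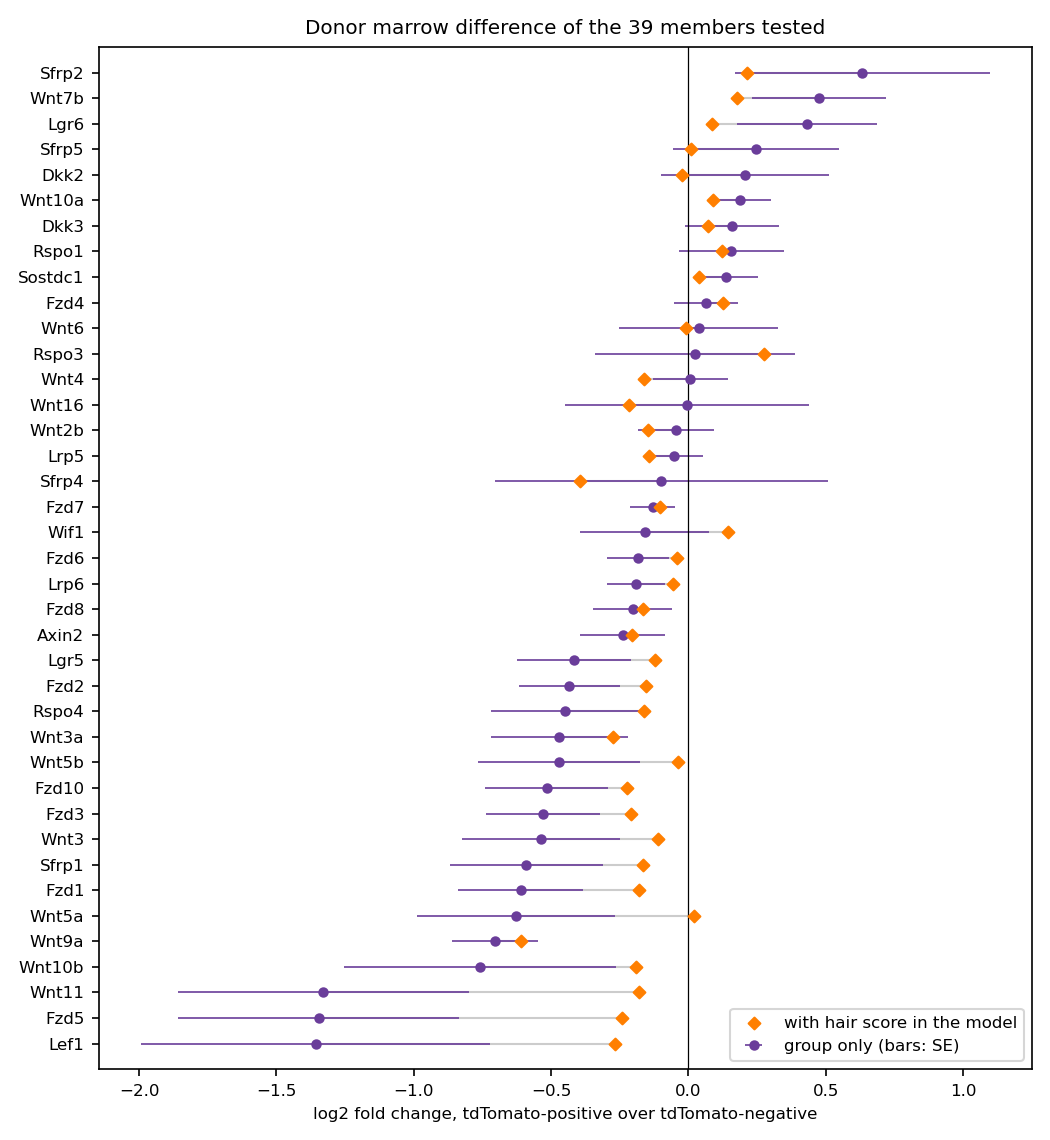
Log2 fold change of tdTomato-positive over tdTomato-negative recipients (x axis) for the 39 members tested, by group only (purple circles, bars give the SE) and with the hair score in the model (orange diamonds). Lef1, Fzd5 and Wnt11 lie between -1.36 and -1.33 by group only and between -0.27 and -0.18 with the score, Wnt9a has -0.71 and -0.61, and no value has an adjusted p under 0.05.

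Wnt9a, a ligand of the same family, had 1.76, 1.56, 1.79 and 2.02 TPM in positive replicates 1 to 4, against 2.15, 2.90 and 3.26 TPM as the lowest, median and highest in negative samples. Every positive sample lay below every negative sample, also in CPM, where 1 of the 39 members and 1.67% of all genes tested did not overlap between groups. Its log2 fold change was -0.71 ± 0.16 (SE, adjusted p = 0.248 in edgeR) by group only and -0.61 ± 0.17 (SE, adjusted p = 0.626 in edgeR) with the hair score, so neither passed. It rests on 25 to 50 counts per sample. At equal hair score, 1 of 39 members (2.56%) had an unadjusted p under 0.05, beside 7.87% of all genes.

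The rest of the pathway was followed with a list of 64 other Wnt genes, of which 63 were in the tables and 60 were tested. With the hair score, 13 rose and 2 fell, beside 7.16% of all genes called upward and 4.02% downward (11.2% in either direction). The median slope was 0.07, and 42 of 60 slopes were above 0, against 48.8% of all genes. Bambi, a decoy receptor that is a canonical Wnt target, had 2.11, 1.08, 1.91 and 9.14 TPM in positive replicates 1 to 4, against 1.49, 12.4 and 22.8 TPM as the lowest, median and highest in negative samples. Its slope was 1.62 ± 0.12 (SE, adjusted p = 2.29e-06 in edgeR). Nkd2, which binds Dishevelled and limits the pathway, had a slope of 0.85 ± 0.08 (SE, adjusted p = 1.40e-05 in edgeR), Prickle1, a planar polarity protein, one of 0.66 ± 0.06 (SE, adjusted p = 8.23e-06 in edgeR), and Cxxc4, an inhibitor of Dishevelled, one of 1.29 ± 0.18 (SE, adjusted p = 0.000475 in edgeR).

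Others of the 13 that rose are given after their values were seen. Wls, the carrier that takes Wnt ligands to the surface, had a slope of 0.28, the noncanonical receptor Ror2 one of 0.38, Lgr4, the broadly used R-spondin receptor, one of 0.26, Ctnnb1, which encodes beta-catenin, one of 0.21, and its partner Tcf7l2 one of 0.16. Not all genes of such roles rose: Porcn, the enzyme that lipidates Wnt ligands, had a slope of -0.11 ± 0.07 (SE, adjusted p = 0.347 in edgeR), and the receptors Ror1 and Ryk had 0.09 ± 0.11 (SE, adjusted p = 0.646 in edgeR) and 0.05 ± 0.04 (SE, adjusted p = 0.372 in edgeR). The 2 that fell were the corepressor Tle1 (-0.20 ± 0.05, SE, adjusted p = 0.0148 in edgeR) and Dact3 (-0.47 ± 0.13, SE, adjusted p = 0.0378 in edgeR). Tle1 lost its call without negative replicate 7 (slope -0.19, adjusted p 0.140), and Dact3 without negative replicate 1, 2, 4, 5, 6 or 7 (slopes -0.49 to -0.38, adjusted p 0.0526 to 0.282). Next below 0 by p came Tspan12, with a slope of -0.29 ± 0.10 (SE, adjusted p = 0.093 in edgeR). Dvl1 had -0.13 ± 0.05 (SE, adjusted p = 0.096 in edgeR), and neither passed. Tspan12 was called in a model with no group term (-0.39, adjusted p = 0.0224 in edgeR). Of 12 genes listed as readouts of canonical signalling, 11 were tested, and Lef1, Bambi and Nkd2 rose and none fell, beside 7.16% of all genes called upward. No gene of the other pathway list was called in the donor comparison. There 45 of 60 were below 0, against 51.4% of all genes, with a median log2 fold change of -0.16.

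**Figure D5:**
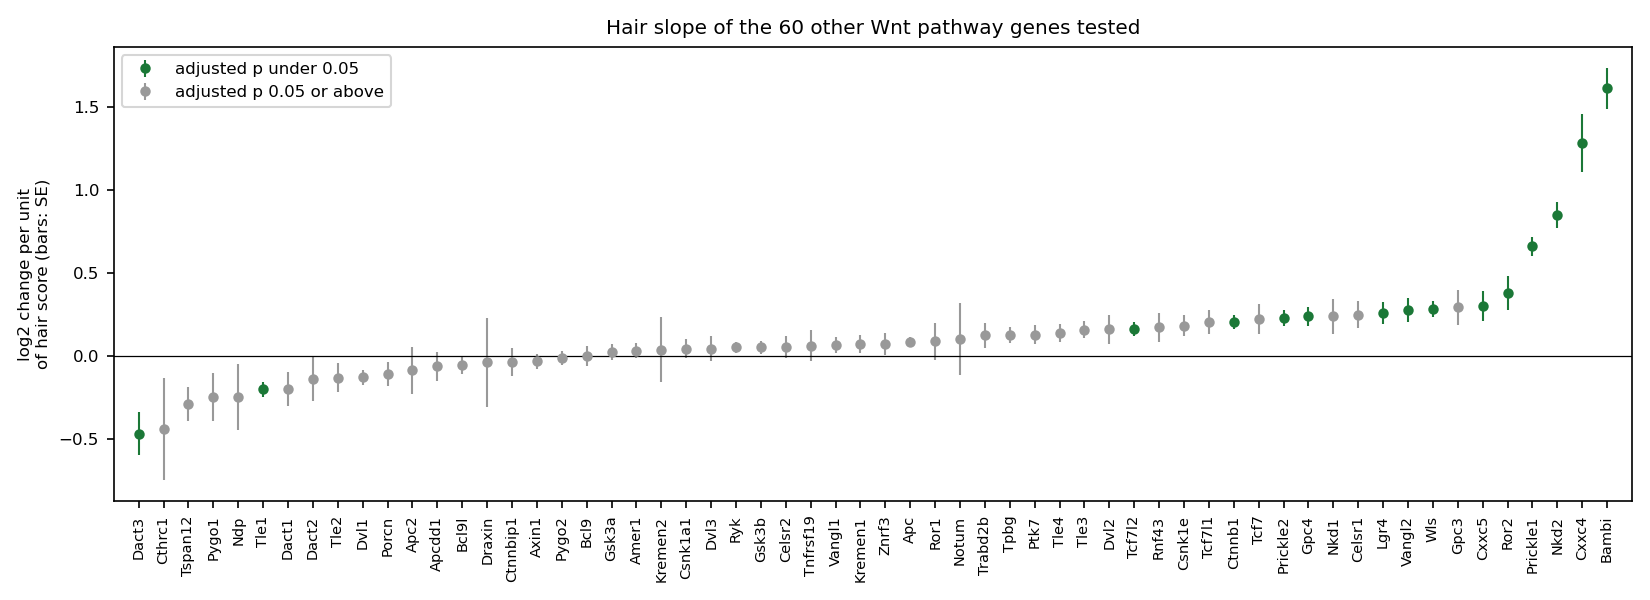
Hair slope (y axis, log2 change per unit of hair score, bars give the SE) of the 60 other Wnt pathway genes tested, in order of slope; green marks an adjusted p under 0.05 in edgeR. Bambi, Cxxc4, Nkd2 and Prickle1 are at the upper end, and Dact3 and Tle1 are the 2 called below 0.

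Some marker genes of other cells were called for the same score, beside 7.16% of all genes called upward and 4.02% downward. Of 10 regulators of the hair matrix 9 rose, with summed levels of 152 to 385 TPM in positive and 209 to 692 TPM in negative samples. Of 11 tested dermal papilla genes 3 rose, while 4 of the 11 slopes were above 0 and their median was -0.17. Of 10 melanocyte genes 3 rose and 1 fell, with 30.5 to 72.9 TPM in positive and 53.4 to 163 TPM in negative samples for the melanocyte list. Among the genes that fell were 3 of 12 fibroblast genes (4539 to 7238 TPM in positive and 3621 to 9417 TPM in negative samples), 5 of 10 endothelial genes (138 to 185 TPM in positive and 92.8 to 173 TPM in negative samples), 4 of 7 tested Schwann cell genes and 2 of 12 genes of the epidermis between follicles. Of 11 genes of the bulge and outer root sheath 3 rose and 2 fell. No gene was called among 10 macrophage, 12 skeletal muscle, 10 adipocyte and 10 sebaceous gland genes. Nor was any among 10 cell cycle, 7 tested neutrophil and 8 tested T cell genes. None of the markers listed was at 0 in all samples. Their part in the hair slopes was not tested, except that a fibroblast score and a cell cycle score were each added to the model after the data were seen. With the fibroblast score, Fzd5 (slope 0.82), Wnt11 (0.94), Lef1 (0.88), Wnt5a (0.57), Fzd1 (0.34), Lgr5 (0.40) and Lgr6 (-0.54) were still called, and the other 8 of the 15 were not: Sfrp1 (0.26), Fzd3 (0.23), Wif1 (0.34), Lrp6 (0.0930), Fzd10 (0.13), Wnt10b (0.27), Wnt4 (-0.20) and Wnt7b (-0.43), with adjusted p of 0.125 to 0.641 in edgeR. With the cell cycle score, 9 of the 15 were still called and Wif1 (0.27), Lrp6 (0.10), Fzd10 (0.27), Wnt10b (0.60), Wnt4 (-0.14) and Wnt7b (-0.25) were not, with adjusted p of 0.187 to 0.253 in edgeR. Sfrp4 was called in that fit (-0.92, adjusted p = 0.0188 in edgeR).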

How the data were processed

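The authors deposited, for each of 11 samples, an RSEM gene table with an expected count, a TPM value and an effective length per gene, and per the submitters' processing notes bcl2fastq, Trim Galore, RSEM and GRCm38 were used. Neither versions nor the aligner nor the strand setting of the counting appear in the labels or headers. The deposited expected counts were rounded to whole numbers, since 8.17% of them were not whole within 0.005, and totals were 7190752 to 9749842 per sample. The TPM values made by the authors were used as deposited, for levels only. Deposited effective lengths entered 1 alternative as offsets.

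Genes were filtered with filterByExpr (count minimum 10, total 15), scaled by TMM and fitted with edgeR 4.0.16 quasi-likelihood models in R 4.3.3, with limma 3.58.1 and DESeq2 1.42.0 as alternatives. The donor model had group only, and the hair model group and hair score. The difference of hair slopes added their interaction. An SE is the log2 change over the square root of its F value. Alternatives were RLE size factors, DESeq2, limma, no filter, length offsets, other measures of hair, no group term, the negative group alone, the replicate number as a block and each sample left out. The block was fitted without negative replicates 5, 6 and 7, whose numbers have no positive sample. The fits were tested on simulated data. Symbols were read from the gene IDs. No libraries matched within sampling noise. Intervals from counts cover counting error only.

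The members and lists were chosen with earlier results of these data known. Genes named singly are Axin2, Lef1, Lgr5, Lgr6, Wif1, Lrp5, Lrp6 and Sostdc1, the 3 most abundant of each family, the 8 members of smallest p in each direction of the hair slope, the 5 in each direction of the donor comparison and the 4 in each direction of the other pathway genes. Others, such as Fzd10, Wnt10b, Wnt3, Wls, Ror2, Lgr4, Ctnnb1 and Tcf7l2, were named after their values were seen.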

Additional observations from a re-analysis of the deposited data

Results flagged for a closer look

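Of 60 sets of group values examined over 30 genes, 8 had a sample apart from the rest of its group by Dixon's criterion at the 95% level. Independent sets would give about 3 by chance. These sets share their samples and include all members called for the hair slope, so the 8 cannot be compared with that number. In the tdTomato-positive group, replicate 4 stood apart for Lef1 with 19.66 TPM, for Wnt11 with 8.04 TPM, for Fzd3 with 7.79 TPM and for Wnt10b with 3.66 TPM, and it is the 1 positive sample with a hair score above 0. Positive replicate 3 stood apart for Wnt4 with 30.39 TPM. In the tdTomato-negative group, replicate 7, with the lowest hair score, stood apart for Lgr6 with 11.91 TPM and for Sfrp4 with 16.96 TPM. Negative replicate 1 stood apart for Dkk2 with 14.64 TPM.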

How the results depend on the processing

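All 15 called members kept the sign of their hair slope in the 24 alternatives run, and Fzd5, Wnt11, Lef1 and Wnt5a were called in every one. Leaving out 1 sample at a time gave 9 (without negative replicate 1) to 19 members called, 8 to 15 above 0 and 0 to 4 below 0, against 15, 12 and 3, and 1119 to 1824 of all genes. The fibroblast score as a covariate, added after seeing the data, left 7 members (6 above and 1 below 0) and 402 of all genes, the cell cycle score left 726 of all genes, and a model with no group term called 2941. The labels do not say whether replicate numbers pair the samples. Deviations from the group means over all tested genes correlated at -0.0417, -0.14, -0.0538 and 0.338 for numbers 1 to 4. Hair content also enters these deviations, so they cannot decide whether samples were paired. The fit with the replicate block used only numbers 1 to 4 of each group and left out negative replicates 5, 6 and 7. It called 4 members (4 above and 0 below 0) and 390 genes in all. The smaller set of samples and the block itself cannot be told apart there. In the donor comparison, DESeq2 called 68 genes, leaving out 1 sample gave 0 to 3, and at equal hair score DESeq2 called 7, with no member in any of these.

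Single slopes were followed over the alternatives only for called members and for members named by the fixed list, by level or by hair slope. Other uncalled members, such as Fzd8 and Wnt6, were not followed. Of the uncalled members followed, 6 changed sign, among them those with the larger slopes of Sfrp4 (-0.59) and Dkk2 (-0.27). Axin2 had -0.00966 by limma-trend, -0.187 with the replicate block and -0.0634 to 0.0634 with 1 sample left out. Fzd7 had -0.0111 by limma-trend, -0.0381 with the block, -0.0269 with the fibroblast score and -0.00480 to 0.0562 with 1 sample left out. Sfrp4 had 0.25 with the block and -0.812 to 0.413 with 1 sample left out. With the fibroblast and the cell cycle score, Dkk3 had 0.0878 and 0.0567, Dkk2 0.15 and 0.0317, and Rspo1 0.0782 and 0.0592. With 1 sample left out, Dkk3 had -0.347 to 0.00899, Dkk2 -0.62 to -0.0846 and Rspo1 -0.152 to 0.0143. The cause was not tested. Depth limits the 10 untested members and tested ones with few counts, among them Rspo3, Sfrp5, Wnt16, Wnt10b and Wnt6.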

Other observations

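Among the members with too few reads to test, Rspo2, an R-spondin that drives hair growth in mice, had its highest level in tdTomato-positive replicate 4, at 1.52 TPM, against 0.68 TPM or less in every other sample. Fzd9 was also highest there, at 1.26 TPM. Wnt7a was highest in tdTomato-negative replicate 7, at 1.03 TPM, against 0.46 TPM or less elsewhere. These values rest on at most 22, 11 and 14 expected counts in a sample and carry no test.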
